A study of Mus musculus with 10 samples.

Results

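The 7SK RNA and the proteins that surround it were examined in mouse embryonic stem cells. The 10 genes were chosen by name, as the Ensembl genes of Rn7sk (the 7SK RNA itself), Hexim1, Hexim2, Larp7, Mepce, Cdk9, Ccnt1, Ccnt2, Cdk12 and Cdk13, from the 55487 genes of the expression tables. All 10 were present in the tables. The rule names genes and uses no measured value, but it was written with earlier results of these data known. The study mapped R-loops, hybrids of RNA with the DNA it was copied from, in the E14 line and also sequenced the RNA of unperturbed cells. Of its 10 samples in 6 groups, only the 3 RNA-seq replicates, which form 1 group, are used below; the 7 samples of R-loop mapping are not analysed here, and no treatment or genotype was compared. E14 is an established mouse embryonic stem cell line. The cells were grown in medium with 15% FBS, LIF, 3 µM of a GSK inhibitor and 1 µM of a MEK1/2 inhibitor. Nothing in the labels says whether the replicates came from separate cultures, so the spread between them may be technical.

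7SK is a small nuclear RNA made by RNA polymerase III. It is capped by Mepce and held at its 3′ end by Larp7, and with Hexim1 or Hexim2 it keeps the kinase P-TEFb, a dimer of Cdk9 with cyclin T1 or T2 (Ccnt1, Ccnt2), inactive. Released P-TEFb phosphorylates RNA polymerase II and the factors that pause it shortly after initiation, and the polymerase then goes on to elongate; Cdk12 and Cdk13, which pair with cyclin K, phosphorylate the same polymerase tail further into the gene. In embryonic stem cells many developmental genes hold a paused polymerase. For the 9 protein partners the libraries measured RNA, not protein.

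Rn7sk (ENSMUSG00000065037) is a single-exon gene of 331 nt on the minus strand of chromosome 9, at chr9:78175303-78175633 (GRCm38, GENCODE vM21). It is shown here in 2 pieces, because the first 241 bases are identical to part of another annotated gene and the remaining 90 are not. Capitals mark GATC (GAUC in the RNA) at positions 13 to 16, 42 to 45 and 64 to 67, the motif of the 5′ hairpin to which Hexim proteins are known to bind, and the last 3 T at the 3′ end, part of the U-rich tail that Larp7 is known to bind. The capitals mark letters only and do not show which GATC is bound. Positions are counted from 1 at the 5′ end of the transcript.
Rn7sk bases 1 to 241, chr9:78175393-78175633, minus strand: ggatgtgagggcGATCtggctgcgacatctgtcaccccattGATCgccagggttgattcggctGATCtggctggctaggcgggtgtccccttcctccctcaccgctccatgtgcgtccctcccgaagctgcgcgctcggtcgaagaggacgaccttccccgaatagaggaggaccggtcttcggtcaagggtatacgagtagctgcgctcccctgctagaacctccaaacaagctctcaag
Rn7sk bases 242 to 331, chr9:78175303-78175392, minus strand: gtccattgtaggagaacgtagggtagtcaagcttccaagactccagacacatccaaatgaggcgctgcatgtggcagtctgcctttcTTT

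Replicates 1, 2 and 3 had totals of 11420425, 6467405 and 5787357 estimated counts. The replicates differed in a way tied to transcript length, which touches several results below. Taking genes whose counts averaged 100 or more, the 240 genes under 500 nt lay a median of 0.35 above their own 3-replicate mean in replicate 3 (log2 CPM, where CPM is the count scaled to a common library total), and the 815 genes of at least 5000 nt lay at -0.27. The cells carried the markers of their label. All 7 pluripotency genes examined had a mean of at least 1 TPM, a level scaled for effective length and for the library, from 16.6 for Klf4 to 331 for Tdgf1, with summed levels of 1019, 804.8 and 670.9 TPM. Of 5 fibroblast or feeder markers, Col3a1 and Postn had 0 counts in every library, which allows up to 0.263, 0.464 and 0.518 CPM, and Thy1 alone passed 1 TPM. None of 4 primitive endoderm markers and none of 3 neural markers did, and Tfap2c was the only one of 4 trophectoderm markers that did. These counts hold for deposited TPM, whose total is taken up below, and some markers under 1 TPM were detected. Sox1 averaged 0.733 TPM with 122, 67 and 44 counts in replicates 1, 2 and 3. Gata4 averaged 0.45 TPM with 47, 19 and 12 counts, and Krt18 0.603 TPM with 25, 9 and 18.

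The 7SK RNA was one of the most abundant transcripts in these libraries. Rn7sk had 316975, 186659 and 252582 estimated counts in replicates 1, 2 and 3. The RNA thus took 2.78%, 2.89% and 4.36% of all counts, with Wilson 95% intervals of 2.77 to 2.79, 2.87 to 2.90 and 4.35 to 4.38, and a mean of 3.34% ± 0.887 (SD, n = 3). The intervals cover counting error only. Replicates 1 and 2 lay close together and replicate 3 stood above both. In bulk samples such as these, fewer cells expressing a gene and less of its RNA per cell cannot be told apart.

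By mean CPM, which takes no account of length, Rn7sk ranked 2 of all genes at 33420 ± 8871 CPM (SD, n = 3). Only mt-Co1, a mitochondrial gene of the respiratory chain, was above it, at 42675 ± 2658 CPM. The next genes were Rn7s2, an RNA of the signal recognition particle, at 15006 CPM, the snRNA gene Gm23971 at 12547 CPM and the unprocessed pseudogene Gm28437 at 11496 CPM. Scaled to effective length, which was 194, 184 and 198 nt in the 3 replicates, Rn7sk had 60264, 53428 and 67105 TPM. The spread was narrower in TPM, with a ratio of 1.57 between the highest and lowest CPM and 1.26 between the highest and lowest TPM. Replicate 3 was highest on both scales. The effective length of Rn7sk itself differed by at most 1.08 times between replicates. TPM also divides by a library-wide total of counts per effective length, which CPM does not.

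The 9 partner genes lay between 0.667 and 12.5 TPM on average. A mean of at least 1 TPM was reached by 9 of the 10 genes, Rn7sk included, with Hexim2 the exception. Among the 9 partners, which are protein-coding, all but Hexim2 thus reached it, against 44.1% of the 21974 annotated protein-coding genes. The median over the 9683 protein-coding genes that reached 1 TPM was 5.73 TPM, and 6 of the 9 partners lay above it.

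**Figure D1:**
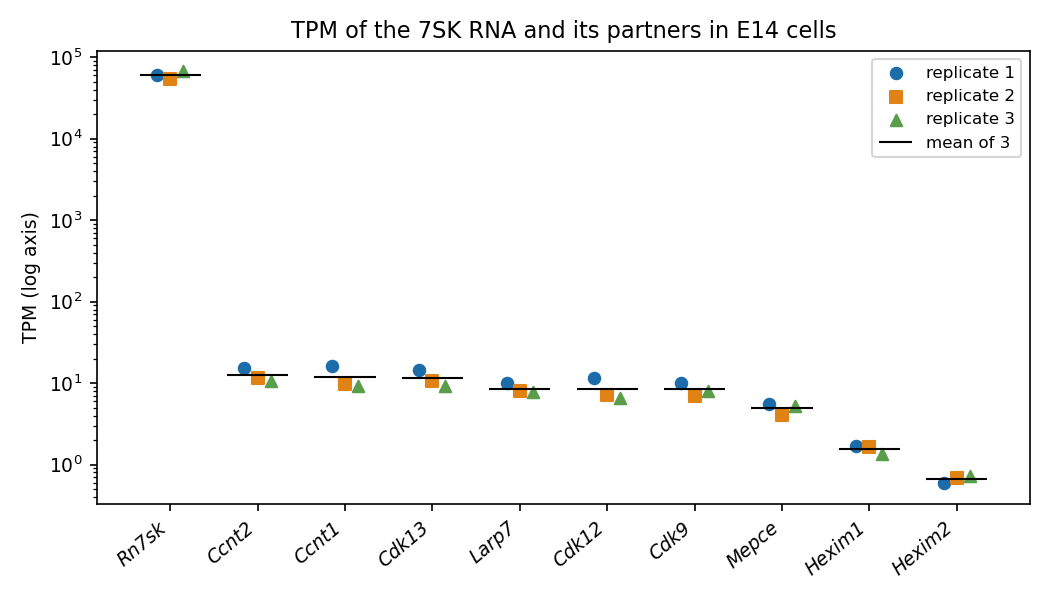
TPM of the 10 genes on a log axis, with 1 point per replicate and a bar at the mean of 3. Rn7sk sits at 60265 TPM, while the partners run from 12.5 TPM for Ccnt2 down to 0.667 TPM for Hexim2.

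The cyclin T genes had the highest mean levels of the partners, and the P-TEFb kinase lay below them. Cdk9 (ENSMUSG00000009555, chr2:32705784-32713076, minus strand), the catalytic subunit, had 416, 208 and 205 counts, which gave 10.1, 6.90 and 8.04 TPM in replicates 1, 2 and 3. Ccnt1 (ENSMUSG00000011960, chr15:98538689-98570923, minus strand), which encodes cyclin T1, had 1436, 762 and 569 counts and 16.1, 9.82 and 9.29 TPM. Ccnt2 (ENSMUSG00000026349, chr1:127774164-127808061, plus strand), which encodes cyclin T2, had 2000, 1076 and 847 counts and 15.4, 11.4 and 10.6 TPM. Each cyclin was highest in replicate 1, and the values of the cyclins overlapped each other. The summed cyclin T level was 31.4, 21.3 and 19.9 TPM, which is 3.10, 3.08 and 2.47 times that of Cdk9, a mean of 2.88 ± 0.359 (SD, n = 3).

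The inhibitors were the scarcest members. Hexim1 (ENSMUSG00000048878, chr11:103116231-103119725, plus strand), a gene of 1 exon that encodes the main 7SK-dependent inhibitor, had 153, 103 and 87 counts and 1.68, 1.62 and 1.36 TPM. Among protein-coding genes with at least 1 TPM it ranked low, 90.4% of the way down the list. Hexim2 (ENSMUSG00000043372, chr11:103132429-103139876, plus strand), its paralogue, begins 12703 bp beyond the end of Hexim1 and had 26, 22 and 18 counts and 0.59, 0.68 and 0.73 TPM. The levels of these neighbours did not overlap, and every Hexim value was below every Mepce value. Summed, the Hexim genes had 2.27, 2.30 and 2.09 TPM, a mean of 2.22 ± 0.114 (SD, n = 3). The cyclin T level was 13.8, 9.24 and 9.50 times that sum and the Cdk9 level 4.47, 3.00 and 3.85 times, all as ratios of RNA per effective length.

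Of the proteins that stay on the RNA, Larp7 was at the level of Cdk9 and Mepce lay between Cdk9 and the Hexim genes. Larp7 (ENSMUSG00000027968, chr3:127536714-127553349, minus strand), a La-related protein of the 7SK 3′ end, had 504.9, 296 and 288 counts and 9.90, 8.0 and 7.72 TPM. Mepce (ENSMUSG00000029726, chr5:137781906-137787655, minus strand), the methyltransferase that caps the 5′ end, had 295, 161 and 146 counts and 5.53, 4.04 and 5.20 TPM. Larp7 was above Mepce in each replicate, with no overlap.

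The elongation kinases were at the level of the P-TEFb genes. Cdk12 (ENSMUSG00000003119, chr11:98203059-98278504, plus strand) had 1623, 708 and 627 counts and 11.4, 7.21 and 6.60 TPM. Cdk13 (ENSMUSG00000041297, chr13:17710315-17805097, minus strand) had 1485, 777 and 622 counts and 14.4, 10.8 and 9.09 TPM. Both were highest in replicate 1, and their ranges overlapped.

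Ordered by mean TPM, the genes ran Rn7sk, Ccnt2 (12.5 ± 2.56), Ccnt1 (11.7 ± 3.77), Cdk13 (11.4 ± 2.70), Larp7 (8.54 ± 1.19), Cdk12 (8.41 ± 2.62), Cdk9 (8.36 ± 1.64), Mepce (4.92 ± 0.783), Hexim1 (1.55 ± 0.170) and Hexim2 (0.667 ± 0.0709), each with its SD over 3 replicates. From Ccnt2 to Cdk9 every pair of neighbours had overlapping values across the 3 replicates. Within replicates, Cdk13 was above Larp7 in 3 of 3 (a log2 TPM difference of 0.40 ± 0.15, SD), while each of the other neighbours in that stretch changed order in 1 replicate. All Ccnt2 values lay above all Cdk9 values. The steps that did not overlap were those from Rn7sk to Ccnt2, from Cdk9 to Mepce (1.70 times by the means), from Mepce to Hexim1 (3.17 times) and from Hexim1 to Hexim2 (2.33 times).

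The RNA far exceeded each partner. Rn7sk TPM was 5943, 7410 and 8692 times the median of the 9 partners in replicates 1, 2 and 3, a log2 difference of 12.83 ± 0.28 (SD, n = 3). It was 708, 884 and 1145 times the sum of all 9. Counts without length scaling gave a smaller factor, since the partners' transcripts are longer: Rn7sk counts were 39.9, 45.4 and 74.1 times the partners' summed counts. Single partners ranged widely. Beside Ccnt2, the highest partner, Rn7sk TPM was 3923, 4670 and 6355 times as high. Beside the proteins that stay on the RNA, it was 6087, 6678 and 8692 times that of Larp7 and 10898, 13225 and 12905 times that of Mepce. The factor for Hexim1 was 35871, 32980 and 49342. In 7 of the 9 ratios to single partners the highest value was in replicate 3, the library in which short transcripts as a class stood high, and the part of that class shift in these ratios was not tested.

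TPM is a share of a fixed total, and genes of effective length under 100 nt held 60.3%, 65.8% and 63.9% of it in the 3 replicates. With those genes out of the total, the 9 partners summed to 214, 177 and 162 TPM and Rn7sk stood at 151813, 156290 and 186052 TPM. Hexim2 then also passed 1 TPM, so all 10 genes did. The levels of all genes kept in the total rise on this scale. The share of protein-coding genes that pass 1 TPM was not recomputed on it, nor were the marker genes. The 10 of 10 thus cannot be set beside the 44.1% given above. The ratios between members are not touched by this change.

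Among the paralogues, 3 pairs were compared per effective length in each replicate, and Benjamini-Hochberg adjustment was made over those 3. With 3 replicates a two-sided exact sign-flip permutation test cannot give a p below 0.25. Hexim1 was above Hexim2 in 3 of 3 replicates. The ratio of their levels was 2.83, 2.38 and 1.88, with exact 95% binomial intervals of 1.86 to 4.47, 1.49 to 3.95 and 1.12 to 3.32 that cover counting error only. The ratio of their counts was 5.88, 4.68 and 4.83. The mean transcript length estimated for Hexim2 shifted between replicates, at 1752, 1846 and 1439 nt, over 5 annotated transcripts of 370 to 1910 nt. The intervals do not cover error in that length. On the log2(TPM + 1) scale, which understates differences at such low levels, the difference was 0.61 ± 0.15 (SD, n = 3; exact permutation p = 0.25, adjusted p = 0.375).

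The cyclin T genes were close to each other. The ratio of Ccnt1 to Ccnt2 was 1.05 (0.977 to 1.12), 0.859 (0.782 to 0.943) and 0.880 (0.790 to 0.980), so Ccnt1 was higher in 1 replicate and lower in the other two. The mean difference was -0.10 ± 0.14 on the log2(TPM + 1) scale (SD, n = 3; exact permutation p = 0.5, adjusted p = 0.5). In counts Ccnt2 exceeded Ccnt1 in all 3 replicates. The mean transcript length that the tables give for Ccnt1 changed between replicates, at 3434, 4232 and 3359 nt, because RSEM weights the length by how it divides the reads among 9 annotated transcripts of 465 to 7397 nt. The highest Ccnt1 value, in replicate 1, was 1.73 times the lowest, in replicate 3, in TPM and 1.28 times in CPM. The lengths of those replicates were nearly equal, and the longer length belongs to replicate 2. The 2 scales also differ in the library-wide total by which TPM divides.

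Cdk12 was below Cdk13 in 3 of 3 replicates per effective length. The ratio was 0.794 (0.740 to 0.853), 0.670 (0.604 to 0.743) and 0.726 (0.648 to 0.812), and the difference was -0.41 ± 0.11 on the log2(TPM + 1) scale (SD, n = 3; exact permutation p = 0.25, adjusted p = 0.375). The direction rested on length: without length scaling the difference on the log2(CPM + 1) scale was 0.0019, and Cdk12 had more counts than Cdk13 in replicates 1 and 3 and fewer in replicate 2. Larp7 was above Mepce, which are not paralogues and were not tested, by 0.69 ± 0.18 on the log2(TPM + 1) scale, with ratios of 1.79 (1.55 to 2.08), 1.98 (1.63 to 2.42) and 1.48 (1.21 to 1.82). The Mepce length also shifted, from 2106 and 2248 nt in replicates 1 and 2 to 1611 nt in replicate 3.

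**Figure D2:**
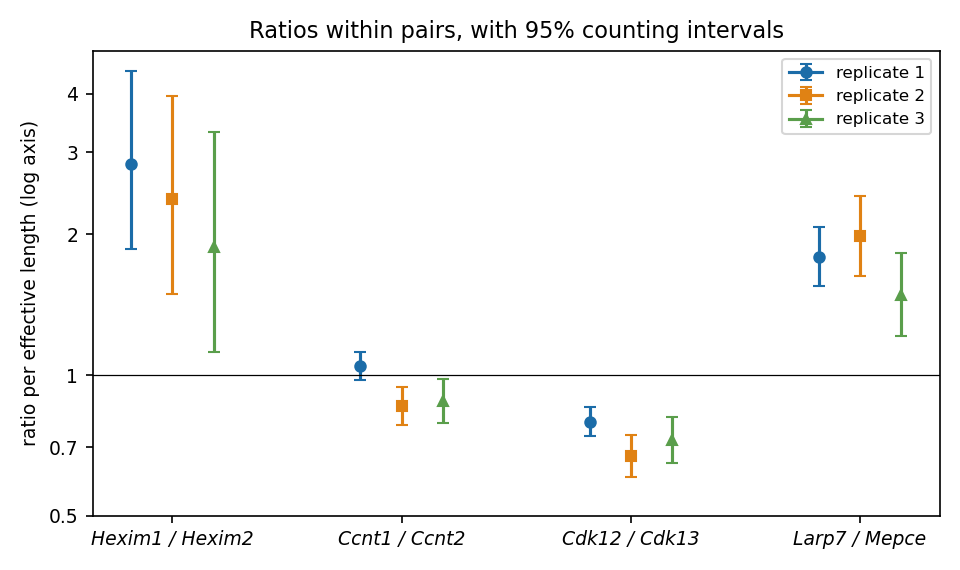
Ratio of 2 levels per effective length in each replicate, on a log axis, with exact 95% binomial intervals for counting error; the line marks equal levels. Hexim1 over Hexim2 lies between 1.88 and 2.83 and Cdk12 over Cdk13 lies between 0.670 and 0.794, while Ccnt1 over Ccnt2 has points on either side of 1.

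No member was called variable between replicates. In edgeR's goodness-of-fit test, which asks whether a gene's counts spread more than the dispersion fitted to genes of like abundance, 0 of the 10 members passed a Benjamini-Hochberg adjusted p-value under 0.05, against 1.84% of the 12577 genes tested. At an unadjusted p under 0.05 the count was also 0 of 10, with 875 of all genes, and DESeq2's dispersion outliers included 0 of the 10 and 123 of 24217 genes. The highest CPM of a member was at most 1.57 times its lowest, and a p that misses the threshold does not show that replicates were alike. On simulated data the edgeR test missed most changes of 2-fold, so it could hardly call differences of the size seen here. Rn7sk had the smallest value of the members, an adjusted p of 0.822 in the edgeR test (unadjusted 0.0658).

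The members lay on different sides of their means. In replicate 3 Rn7sk lay 0.42 above its own mean log2 CPM, Hexim2 0.11 and Larp7 0.10 above. The genes of cyclin T and the elongation kinases lay below, Ccnt1 at -0.21, Ccnt2 at -0.15, Cdk13 at -0.15 and Cdk12 at -0.14. Hexim1, whose 3495 nt transcript is about as long as the mean for Ccnt1, was at 0.03, as was Cdk9, and Mepce was at about 0. Lowest CPM in replicate 3 was found for 4 of the 10 members, against 59.9% of all genes tested, and highest CPM for 2 of the 10, against 21.6%. With the smooth trend on length removed from each library, the unadjusted p of Rn7sk in the edgeR test went from 0.0658 to 0.659. Without replicates 1, 2 and 3 in turn it was 0.0932, 0.0881 and 0.681 in that test. Each of these runs fitted its own dispersion, and what moved the value was not tested.

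**Figure D3:**
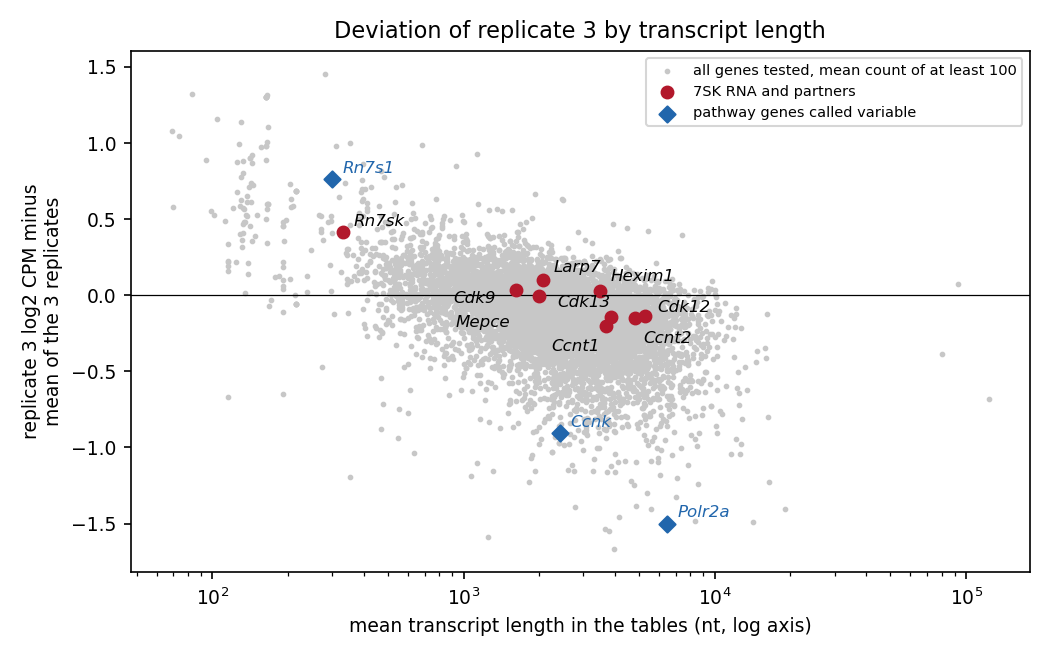
Replicate 3 log2 CPM minus the gene's mean over 3 replicates, against mean transcript length on a log axis, for genes tested that averaged 100 counts or more (grey). Rn7sk at 331 nt lies at 0.42, its partners between -0.21 and 0.10, and the called pathway genes Polr2a and Ccnk below most genes of like length; Hexim2 is not drawn because its mean count was under 100.

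Other small RNAs made by RNA polymerase III were also highest in replicate 3, in CPM, for all 6 genes examined. Rn7s2 of the signal recognition particle had 10506, 15205 and 19305 CPM. Rmrp, the RNA of RNase MRP, had 7110, 7070 and 12143 CPM. Rpph1, the RNA of RNase P, had 5724, 6253 and 11705 CPM. Replicate 3 was 1.54 times the mean of the other two for Rn7sk, against 1.5 for Rn7s2, 1.71 for Rmrp, 1.95 for Rpph1, and 1.65 and 1.73 for the Y RNA genes Rny1 and Rny3. In TPM the Y RNA genes were instead lowest in replicate 3: Rny1 had 47953, 45388 and 38913 TPM and Rny3 103402, 135291 and 94232 TPM. The other 4 genes were highest in replicate 3 in TPM too. Rny1 and Rny3 are only 112 and 102 nt long. A gene of 107 nt, n-R5s73, had effective lengths of 3.82, 2.51 and 5.18 nt in replicates 1, 2 and 3. TPM of such short genes thus rests on a very small divisor, so the Y RNA values cannot be set beside those of Rn7sk. Of these 6 genes, Rn7s1 alone was called variable, with 1703, 956 and 2827 CPM and an adjusted p of 0.00507 in the edgeR test. That call was lost without replicate 2 (adjusted p = 0.885). Rn7s1 and Rn7s2 are near-identical copies, so the division of reads between them is uncertain.

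**Figure D4:**
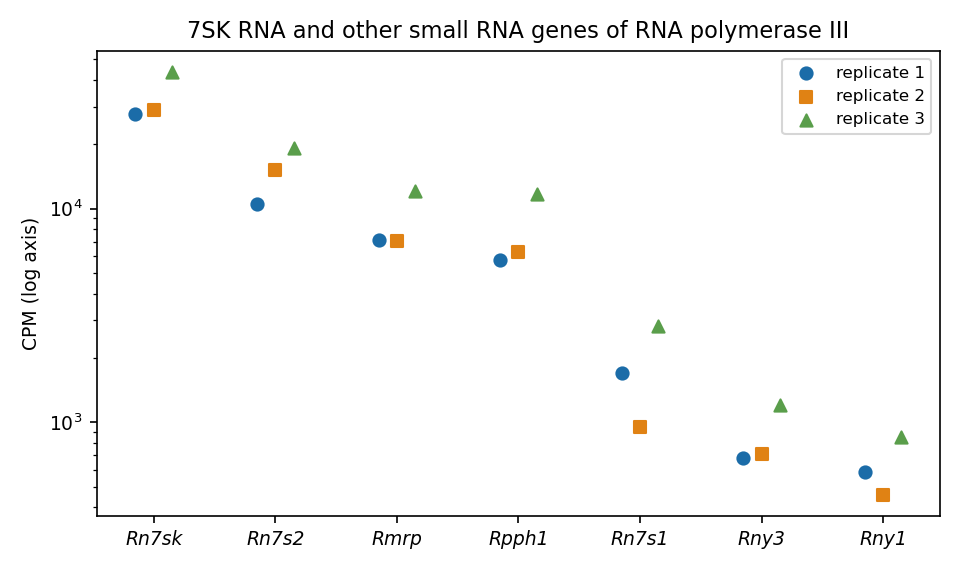
CPM of Rn7sk and 6 other small RNA genes of RNA polymerase III in each replicate, on a log axis. Replicate 3 is the highest point for all 7, and Rn7s1 differs from the rest in having its lowest point, 956 CPM, well under replicate 1 at 1703 CPM.

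The genes with the replicate profile nearest to that of Rn7sk, among 1436 genes that averaged 1000 counts or more, were Hist4h4, Rplp1, Hist1h1a, Rpl41 and the snoRNA gene Gm26447, at Euclidean distances of 0.0561, 0.0655, 0.0796, 0.0835 and 0.0846 in centred log2 CPM. These profiles have only 3 points, which share the library totals, and the likeness is given as a description.

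The wider pathway was expressed throughout. Every one of 42 listed genes of 5 groups had a mean of at least 1 TPM, against 44.1% of all annotated protein-coding genes. No share was taken over other genes of general transcription and RNA binding. The 11 factors of the 7SK type of promoter and the La protein had a median of 5.45 TPM, from 1.41 for Snapc1, a subunit of the complex that binds such promoters, to 31.7 for Ssb, the La protein that binds fresh polymerase III transcripts. The 5 proteins known to bind 7SK RNA once P-TEFb has left were higher, with a median of 54.2 TPM, from 8.29 for Hnrnpr to 103 for Hnrnpa1. None of these 16 genes was called variable by the edgeR test.

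The 9 genes examined of P-TEFb release and the super elongation complex had a median of 8.11 TPM, from 1.82 for Ell to 39.9 for Aff4, a scaffold of that complex, and 0 of them were called variable. The 7 genes of the paused polymerase and its pausing factors had a median of 8.96 TPM, from 5.82 for Nelfcd to 18.6 for Supt5, and the 10 other transcription kinase and cyclin genes a median of 9.18 TPM, from 2.31 for Cdk19 to 17.0 for Cdk7. In each of the last 2 groups 1 gene was called variable, so 2 of 42 listed protein-coding genes were called where the share over all genes tested was 1.84%.

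Both of these genes were low in replicate 3. Polr2a, the largest subunit of RNA polymerase II and the substrate of these kinases, had 5014, 2551 and 506 counts, or 439, 394 and 87.4 CPM. Replicate 3 was 0.210 times the mean of the other replicates, with an adjusted p of 3.81e-06 in the edgeR test.

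Ccnk, the cyclin of Cdk12 and Cdk13, had 80.1, 64.2 and 28.0 CPM (adjusted p = 0.0191, edgeR). Of its kinases, which were not called, Cdk12 had 142, 109 and 108 CPM and Cdk13 had 130, 120 and 107 CPM. With the length trend removed both genes were still called, at adjusted p-values of 2.73e-07 and 0.00493 for Polr2a and Ccnk. Without replicate 3 neither was (adjusted p = 0.999 for each), and Ccnk was not called without replicate 1 (0.236) or replicate 2 (0.125) either. These calls describe 1 library against the other two.

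**Figure D5:**
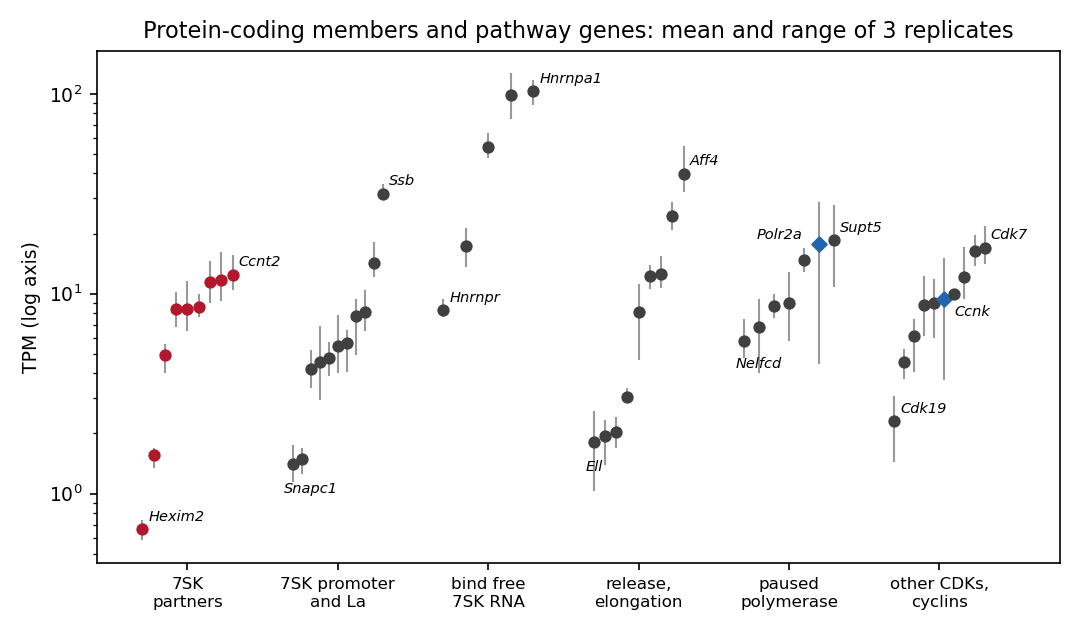
Mean TPM (points) and the range over 3 replicates (lines) on a log axis, for the 9 protein partners of 7SK (red) and 42 genes of 5 pathway groups. Blue diamonds mark Polr2a and Ccnk, called variable between replicates; Hexim2 at 0.667 TPM is the only gene drawn with a mean under 1 TPM.

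The mouse genome holds many copies of 7SK, which bears on how its reads are counted. A search of the annotated transcripts with the Rn7sk sequence found 181 other genes of the class misc_RNA, on 20 chromosomes, that aligned over at least 100 bases, 11 of them at 90% identity or more. In 175 of the 181 the alignment ended by base 260 of Rn7sk, a limit chosen after the alignments were seen, so most copies matched little of the 3′ piece printed above. Reads were assigned to few of them. Of the 181 copies, 153 had 0 counts in all replicates and 28 had any. All copies together held 772.9, 404.3 and 789.2 counts, which is 0.244%, 0.217% and 0.312% of those of Rn7sk.

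The closest copy, Gm24447 on chromosome 15, is identical to the first 241 bases of Rn7sk, the piece that holds all 3 GATC motifs. It was assigned 564, 291 and 588 counts, most of the total for copies. A read inside the shared stretch fits both genes equally, and RSEM divides such reads by estimate, so these counts are uncertain. Gm23037 on chromosome 17, which aligned over 332 positions at 89.2% identity, had 7, 5 and 2 counts. Even if all counts of the copies belonged to Rn7sk, its level would change by less than 1%. The opposite error, reads of a copy credited to Rn7sk, has no such bound here and was not tested.

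Other genes overlap the members. The miR-302 and miR-367 genes, a cluster known for its expression in embryonic stem cells, lie within an intron of Larp7 on the opposite strand, from Mir302b (chr3:127545228-127545301) to Mir367 (chr3:127545733-127545807). The mature 3p arms found in RefSeq's table (GRCm38.p6) are shown with the seed, bases 2 to 8, in capitals, because the tables cannot show these RNAs. miR-302b and miR-302d share a seed, that of miR-302c is set off by 1 base, and miR-367 has another. miR-302a-3p was not matched, and the 5p arms are not shown.
mmu-miR-302b-3p: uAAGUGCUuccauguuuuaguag
mmu-miR-302d-3p: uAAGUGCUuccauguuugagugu
mmu-miR-302c-3p: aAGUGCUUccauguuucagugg
mmu-miR-367-3p: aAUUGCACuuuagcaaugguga

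All 5 genes of that cluster had 0 counts and an effective length of 0 in every replicate. A hairpin gene of 66 to 75 nt is shorter than the sequenced fragments, so the zeros do not bear on whether the miRNAs were present. Mir2861 and Mir3960, in an exon of Cdk9 on the same strand, and Mir5119, in an intron of Cdk12, also had 0 counts. Antisense to Ccnt1, 9330020H09Rik had 26, 10 and 13 counts beside 1436, 762 and 569 for Ccnt1. Within Cdk13, Gm48624 had 58, 38 and 18 counts. Whether the counting used strand is not given in the sources used here, so reads of a gene and an antisense partner may not be separated.

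Several members have a gene on the other strand that starts close to their outermost annotated start (GENCODE vM21), from which the distances here are taken. The lincRNA gene C920006O11Rik starts 281 bp from the start of Rn7sk and had 0.76, 0.45 and 0.40 TPM, a mean of 0.537 ± 0.195 (SD, n = 3), against 60265 for Rn7sk. Zgrf1 starts 140 bp from Larp7 and had 5.96, 4.22 and 3.18 TPM, below Larp7 in each replicate. Zcwpw1 starts 143 bp from Mepce and had 2.01, 1.18 and 1.62 TPM, below Mepce in each. The transcripts beside the cyclin T genes were near zero: 4930415O20Rik, 81 bp from Ccnt1, had 0, 1 and 0 counts, and 2900009J06Rik, 72 bp from Ccnt2, had 3, 4 and 2. The RefSeq start of Ccnt1, whose window at chr15:98567687-98567986 is used below, is a different one. It lies inside the annotated gene, within the antisense gene 9330020H09Rik. The RefSeq starts of Hexim1, Cdk9 and Cdk12 also lie inside the annotated genes. The Cdk9 window, chr2:32712735-32713034, is wholly inside its gene and holds Mir2861 and Mir3960. The Cdk12 window, chr11:98203055-98203354, is almost wholly inside its gene.

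The promoters of the partners were rich in CpG. RefSeq windows of 250 bases before to 50 after the start (GRCm38.p6) were matched for 7 of the 10 genes and not for Rn7sk, Hexim2 and Mepce. Their GC content ran from 61% to 78.3% with a median of 68.3%, against a median of 52.7% over 32851 windows. The ratio of observed to expected CpG had a median of 0.945, against 0.384. GGGCGG, the core of a GC box, was found on either strand in 7 of 7, against 35.7% of all windows. CCAAT was in 4 of 7 (37.4% of all) and CCGGAAG, an ETS-type motif, in those of Cdk9, Ccnt1 and Cdk13 (8.86% of all). Hexim1 alone held TATAA, as did 24.9% of all windows. GCATGCG was also in that of Hexim1 alone, and in 3.58% of all. These matches describe letters in the window only, and overlaps between motifs were not removed. For Hexim1, Cdk9, Ccnt1 and Cdk12 the window is not placed at the outermost annotated start.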

How the data were processed

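Total RNA of E14 cells went, without its ribosomal RNA, into libraries from a directional kit, per the labels' protocols. STAR, RSEM and mm10 are named in the submitters' processing notes, which give no versions; the annotation release and strand setting are not given in the sources used here. Per the file headers, the authors deposited an estimated count per gene (RSEM's expected count, not normalized), TPM scaled by effective length, FPKM (not used here), and length and effective length in nt.

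Coordinates and types came from GENCODE vM21 (GRCm38), which matched 55227 of 55487 gene IDs. CPM is the estimated count scaled to the library total. Counts were rounded for edgeR 4.0.16 in R 4.3.3 (TMM, filterByExpr, intercept-only design, goodness-of-fit test against the trended dispersion, Benjamini-Hochberg adjustment over all genes tested). On simulated data the procedure missed most 2-fold changes of 1 replicate and found most larger ones. DESeq2 1.42.0 was an alternative. Levels between genes were compared in deposited TPM, with a pseudocount of 1 on the log2 scale in pairs. Copies of 7SK were found with BLAST 2.17.0 (E-value at most 1e-10). Other steps used Python 3.11.15 with scipy 1.17.1.

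The members and gene lists were chosen with earlier results of these data known. Genes named were the members, the highest, lowest and called genes of each list, genes overlapping members, the neighbours of Rn7sk in CPM and the 5 nearest profiles; genes that start beside a member, copies of 7SK, and further polymerase III RNAs and markers were named after their values were seen. A floor of 3 counts was used for genes at 0. An item of the lists is not reported here.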

Additional observations from a re-analysis of the deposited data

How the results depend on the processing

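Of 60 alternatives to 8 results, 47 kept the value within its spread or the count within 1.5 times, 12 moved it and 1 reversed it. None of the values that leave out 1 replicate was among those 13. For results given as means this carries no information, although these values count among the 47. Leaving out 1 of 3 replicates cannot shift a mean by as much as their SD, which was the limit used. The log2 excess of Rn7sk over the partners' median (12.83) was 12.13 with annotated length, 9.46 in counts without length and 13.42 against the partners' mean. Hexim1 minus Hexim2 (0.61) was 1.11 with a pseudocount of 0.1, 0.12 with a pseudocount of 10, 0.93 with annotated length, 2.01 in CPM and 0.89 with short genes out of the total. Ccnt1 minus Ccnt2 (-0.10) was -0.51 in CPM. Cdk12 minus Cdk13 (-0.41) was -0.22 with a pseudocount of 10 and reversed to 0.0019 in CPM, and Larp7 minus Mepce (0.69) was 0.31 with a pseudocount of 10. These shifts follow from the construction of each scale. The Rn7sk share (3.34% of counts) was 6.03% of TPM. No member was called variable under any setting run, while the number of all genes called went from 232 to 289 without a filter, 193 with the length trend removed, and 89, 63 and 93 without replicates 1, 2 and 3. Hexim2, at 18 to 26 counts, is the member whose level depth limits most. No paired analysis was possible because files of 1 group only were analysed.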
